A study of Macaca mulatta with 16 samples.

Results

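Collagen IV, laminin and nidogen genes of the basement membrane were followed through the fetal rhesus macaque lung after intraamniotic lipopolysaccharide (LPS). The 9 genes chosen by name were COL4A1, COL4A2, COL4A3, COL4A4, LAMA3, LAMA5, LAMB3, NID1 and NID2. Of these, 8 had a row among the 22515 genes of the count table, and all 8 passed the filter on low counts that left 19199 genes for testing. No gene ID carried the symbol LAMA5, which was not analysed here. The 8 genes were split into epithelial chains (COL4A3, COL4A4, LAMA3 and LAMB3) and chains labelled vascular or interstitial (COL4A1, COL4A2, NID1 and NID2). The second label is loose, since COL4A1 and COL4A2 belong to nearly all basement membranes, those of epithelium included.

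RNA was sequenced from the lungs of 16 fetuses, with 1 library per animal. The 4 preterm controls were untreated and delivered at 131 to 135 days of gestation, and the 2 term controls were untreated and delivered at 156 and 157 days. The 4 LPS 16h animals received 1 mg of intraamniotic LPS and were delivered 16 hours later, at 130 to 131 days. The 3 LPS 5d animals received the same dose and were delivered 5 days later, at 131 to 134 days. In the 3 LPS + Beta-Ac 5d animals, LPS was combined with betamethasone acetate, a synthetic glucocorticoid, given to the dam at 0.125 mg/kg, and delivery was at 131 to 132 days. The controls received no saline injection, so the injection itself cannot be told apart from LPS. Library totals ran from 20169363 to 48052891 counts. The 4 LPS 16h libraries were the deepest, at 30596371 counts or more, against at most 28348816 in the other groups.

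The basement membrane is a thin sheet built on interlocked networks of collagen IV and laminin, which nidogens join to each other. In the alveolus the sheets of the epithelium and of the capillary are fused over much of the surface, and gas crosses them. COL4A1 and COL4A2 encode the chains of the collagen IV network found in nearly all basement membranes, while COL4A3 and COL4A4 encode chains of a second network that in the lung is made largely by the flat alveolar type 1 cells. LAMA3 and LAMB3 encode an alpha and a beta chain that meet in the laminin that anchors epithelium. The genes of each collagen pair are neighbours, with no protein-coding gene between them and with overlapping spans in the RefSeq annotation of T2T-MMU8v2.0, a later assembly than the one used for counting. Whether these overlaps hold transcript sequence of both genes was not examined, and whether the libraries kept strand is not given in the sources used here. It is therefore not known whether reads from such an overlap could be assigned to the wrong gene.

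Levels are CPM, counts relative to the library total, after TMM scaling, which corrects totals for differences in composition, and they are compared between animals and not between genes. Changes are log2 fold changes with their SE from limma, fitted to all 16 animals, with p-values adjusted by Benjamini-Hochberg over all 19199 genes. A gene was called when its adjusted p was below 0.05 and its change at least 2-fold. A gene that passed the adjusted p alone is described as such. Each animal counts as 1 replicate. In whole lung tissue, fewer cells of a type and less RNA per cell cannot be told apart.

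At 16 hours after LPS, COL4A3, COL4A4 and LAMA3 fell to 0.316, 0.346 and 0.460 of their preterm levels (fold from the fit), while LAMB3 rose and the collagen chains COL4A1 and COL4A2 did not pass the test. The 3 genes called, COL4A3, COL4A4 and LAMA3, were all lower, and no member was called higher. Over all genes tested, 14.4% were called in this comparison, 6.07% lower and 8.30% higher. By the adjusted p alone, 5 of the 8 members changed, beside 38.3% of all genes. The calls of COL4A3, COL4A4 and LAMA3 held in every alternative run. The median change of the 8 members was −0.38 on the log2 scale, beside −0.09 over all genes.

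COL4A3 was measured at 149, 157, 154 and 170 CPM in the preterm controls and at 59.5, 31.3, 61.8 and 53.0 CPM in the LPS 16h animals. Every LPS 16h animal lay below every animal of each other group. The log2 fold change was −1.66 ± 0.19 (SE, limma adjusted p = 5.92e-06). At term the gene read 240 and 251 CPM, the highest levels of the series. The LPS 5d animals (179, 170 and 133 CPM) and the LPS + Beta-Ac 5d animals (163, 203 and 133 CPM) overlapped the preterm controls. From 16 hours to 5 days after LPS, the difference was −1.68 ± 0.20 on the log2 scale (16h minus 5d, limma adjusted p = 1.43e-05).

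COL4A4 varied more among the preterm controls, at 35.9, 50.1, 70.2 and 103 CPM. The highest of them, animal 209, lay close to the lower term control. In the LPS 16h animals it read 26.0, 14.9, 24.0 and 19.7 CPM, again with no overlap with any other group. The log2 fold change against preterm was −1.53 ± 0.26 (SE, limma adjusted p = 0.000317). Term controls held 104 and 125 CPM, LPS 5d animals 88.8, 86.9 and 75.2 CPM, and LPS + Beta-Ac 5d animals 105, 95.9 and 72.4 CPM. Against LPS 5d, the LPS 16h level was lower by the widest margin of the 8 members in that comparison, −2.01 ± 0.28 (log2, limma adjusted p = 6.90e-05).

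LAMA3 fell as a tight group. It read 163, 151, 155 and 148 CPM at 16 hours, against 320, 262, 380 and 398 CPM in the preterm controls. The log2 fold change was −1.12 ± 0.13 (SE, limma adjusted p = 8.11e-06). At 5 days the order was the opposite, with LPS 5d at 462, 435 and 574 CPM and LPS + Beta-Ac 5d at 461, 481 and 449 CPM, all above the preterm controls. Both 5-day groups passed the adjusted p against preterm without reaching 2-fold (0.54 ± 0.14 and 0.47 ± 0.14, limma adjusted p = 0.0186 and 0.0322). Term controls read 406 and 514 CPM, a change of 0.44 ± 0.16 that did not pass (limma adjusted p = 0.135).

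LAMB3, whose product pairs with that of LAMA3, moved the other way at 16 hours. It read 217, 160, 197 and 225 CPM in the preterm controls and 234, 302, 271 and 272 CPM in the LPS 16h animals. Its rise of 0.44 ± 0.12 (log2, limma adjusted p = 0.00785) passed the adjusted p and not the fold. Scaled by total count alone, that change was 0.23 and no longer passed (limma adjusted p = 0.0809). At 5 days it was higher still, at 336, 386 and 313 CPM after LPS and 331, 324 and 319 CPM with Beta-Ac. These changes, 0.79 ± 0.13 and 0.71 ± 0.13 against preterm (limma adjusted p = 0.000992 and 0.00132), were the largest rises of any member at 5 days. Term controls, at 248 and 215 CPM, overlapped the preterm animals.

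The pair LAMB3 and LAMA3 thus separated within each animal. Set against the preterm mean of each gene, log2 LAMB3 exceeded log2 LAMA3 by 1.28 to 1.76 in the LPS 16h animals. The same difference ran from −0.19 to 0.20 in the preterm controls, from −0.50 to 0.05 at term, from −0.12 to 0.59 at LPS 5d and from 0.19 to 0.28 with Beta-Ac.

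**Figure D1:**
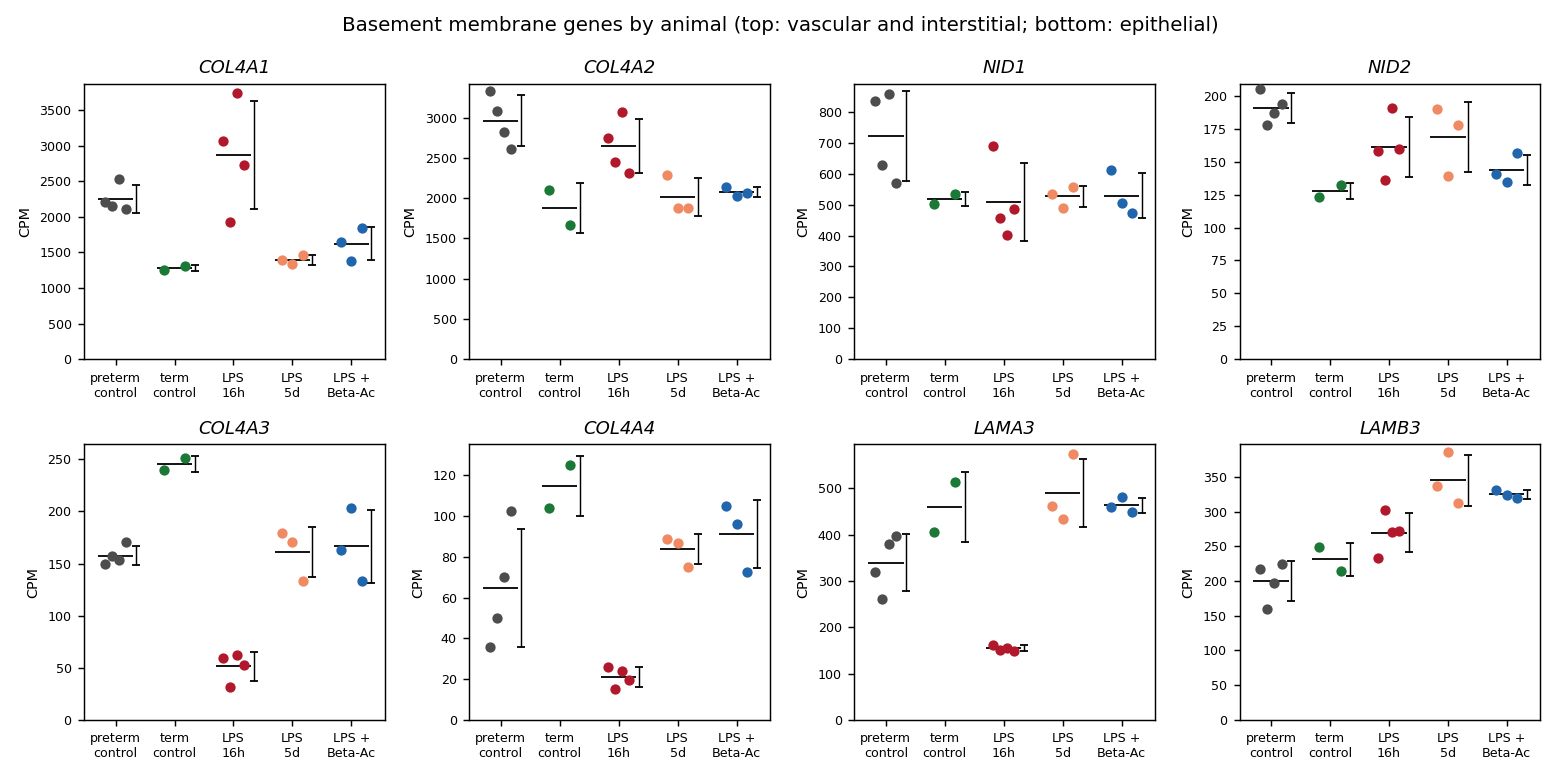
CPM of the 8 genes in each of the 16 animals (points) by group, with the group mean (line) and its SD (bar), and every axis starts at 0. COL4A3, COL4A4 and LAMA3 were lowest in the 4 LPS 16h animals, whereas LAMB3 was highest in the 5-day groups.

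COL4A1 spread widely among the LPS 16h animals. They read 3073, 1925, 3752 and 2734 CPM, beside 2208, 2154, 2536 and 2106 CPM in the preterm controls. Animal 029 lay below all preterm controls and the other 3 above them. The change of 0.31 ± 0.16 did not pass (log2, limma adjusted p = 0.138). Without animal 029 it was 0.52 (limma adjusted p = 0.00296), which passed the adjusted p and stayed under 2-fold.

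By 5 days COL4A1 had fallen below the preterm range. It read 1388, 1333 and 1469 CPM after LPS, near the term controls at 1252 and 1312 CPM. The change against preterm was −0.69 ± 0.17 (log2, limma adjusted p = 0.0158). With Beta-Ac it read 1643, 1379 and 1851 CPM, a change of −0.48 ± 0.17 that did not pass (limma adjusted p = 0.0734). That limma adjusted p ran from 0.019 to 0.0929 under other settings and from 0.0658 to 0.316 with single animals left out. The difference between LPS 16h and LPS 5d was called at 1.00 ± 0.17 (limma adjusted p = 0.000384), at the 2-fold limit itself. Its adjusted p held in every alternative run, but the 2-fold limit was missed in several, for example at 0.81 with total-count scaling.

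COL4A2, which shares a network with COL4A1, read 3334, 3082, 2816 and 2614 CPM in the preterm controls and 2748, 2448, 3066 and 2310 CPM at 16 hours. These groups overlapped, with a change of −0.17 ± 0.12 (log2, limma adjusted p = 0.292). Levels were lower at 5 days, at 2291, 1873 and 1882 CPM after LPS and 2141, 2024 and 2062 CPM with Beta-Ac. Both 5-day groups passed the adjusted p against preterm (−0.56 ± 0.13 and −0.51 ± 0.13, limma adjusted p = 0.00972 and 0.0130). Term controls read 2098 and 1662 CPM.

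The nidogens were not called in any comparison. NID1 read 835, 628, 859 and 570 CPM in the preterm controls and 691, 456, 402 and 487 CPM at 16 hours, a fall of −0.51 ± 0.16 that passed the adjusted p (log2, limma adjusted p = 0.0227) although the groups overlapped. It lost the adjusted p in the fit of these groups alone, and without LPS 16h animal 029 or 035 or preterm animal 092 or 113. It stayed at 491 to 557 CPM at LPS 5d and 472 to 611 CPM with Beta-Ac, and neither passed (limma adjusted p = 0.121 and 0.111). NID2 read 205, 178, 187 and 194 CPM in the preterm controls and 159, 136, 191 and 160 CPM at 16 hours, a change of −0.25 ± 0.12 that did not pass (limma adjusted p = 0.101). With Beta-Ac, NID2 read 141, 134 and 157 CPM, all below preterm (−0.41 ± 0.13, limma adjusted p = 0.0350). With LPS alone at 5 days it read 190, 139 and 178 CPM and overlapped preterm (limma adjusted p = 0.373).

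Term and preterm controls were compared to show the course of normal late gestation. No member was called, beside 2.07% of all genes, and 3 of 8 passed the adjusted p, beside 3.99% of all genes (limma, with 7 of 8 at an unadjusted p below 0.05, and limma-voom also called 0). Those 3 were vascular or interstitial chains and all were lower at term: COL4A1 by −0.81 ± 0.20, COL4A2 by −0.66 ± 0.15 and NID2 by −0.58 ± 0.14 (log2, limma adjusted p = 0.0349, 0.0231 and 0.0358). Each of the 3 lost the adjusted p when either term animal was left out, which leaves 1, and also without preterm animal 092 or 101. COL4A1 and NID2 lost it without preterm animal 113 and when scaled by total count as well, and COL4A2 and NID2 in the fit of these groups alone (limma adjusted p = 0.0810 and 0.0660). The epithelial chains COL4A3 and COL4A4 read 0.64 ± 0.23 and 0.93 ± 0.32 above preterm and did not pass (limma adjusted p = 0.134 and 0.122). LAMB3 changed by 0.22 ± 0.14 and NID1, at 504 and 534 CPM, by −0.46 ± 0.20, and neither passed (limma adjusted p = 0.441 and 0.233). Without preterm animal 209, COL4A4 was called at 1.18 (limma adjusted p = 0.0194).

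**Figure D2:**
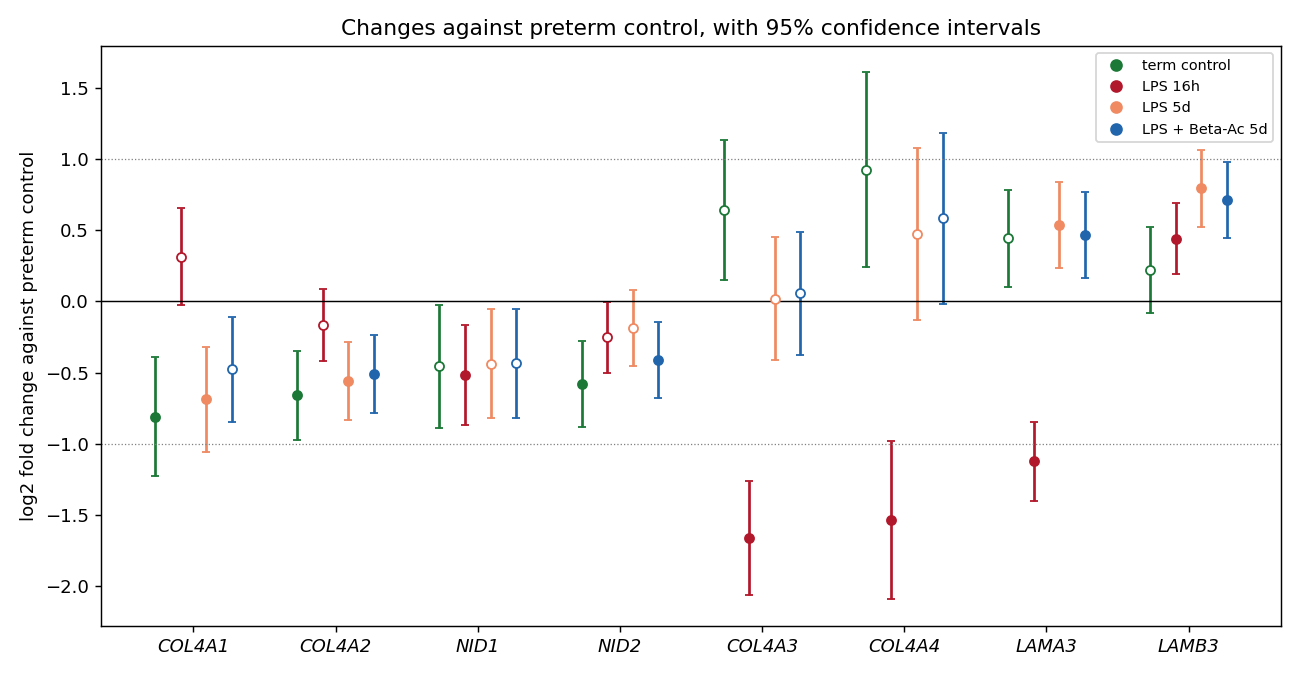
Log2 fold change of each gene against preterm control in the 4 other groups, with 95% confidence intervals from limma. Filled points passed an adjusted p of 0.05, open points did not, and dotted lines mark a 2-fold change. The LPS 16h intervals of COL4A3, COL4A4 and LAMA3 lie wholly below 0. Those of NID1 and NID2 also do, with upper ends at −0.16 and −0.004, and NID2 did not pass the adjusted p.

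At LPS 5d no member was called against preterm, beside 4.83% of all genes, and 4 of 8 passed the adjusted p, beside 14.7% of all genes (limma, with 5 of 8 at an unadjusted p below 0.05). COL4A1 and COL4A2 were the lower ones and LAMA3 and LAMB3 the higher ones. With Beta-Ac no member was called, beside 6.50% of all genes, and 4 of 8 passed the adjusted p, beside 17.3% of all genes (limma, with 6 of 8 at an unadjusted p below 0.05). In both comparisons limma-voom also called 0. COL4A2 and NID2 were lower there, and LAMA3 and LAMB3 higher. LAMB3 kept its adjusted p in both under every alternative. COL4A1 lost it at LPS 5d without animal 239 or 240, COL4A2 without animal 240, and LAMA3 without animal 242 or preterm animal 092. With Beta-Ac, LAMA3 and NID2 lost it without most single animals, and COL4A2 without animal 249. LAMA3 also lost it in the fit of these groups alone (limma adjusted p = 0.0505), and NID2 with median-of-ratios size factors (limma adjusted p = 0.0523). The comparisons against preterm share the same 4 control animals.

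Beta-Ac was compared with LPS alone at 5 days to ask what the steroid added. No member was called and none passed the adjusted p, beside 0.104% of all genes by either rule. By limma, 0 of the 8 had an unadjusted p below 0.05, and limma-voom called 0. The widest 95% confidence interval was that of COL4A4, from −0.53 to 0.75 around 0.11, and the narrowest that of NID2, from −0.51 to 0.06 around −0.22. The other differences, Beta-Ac minus LPS alone, were 0.21 for COL4A1, 0.05 for COL4A2, 0.04 for COL4A3, −0.07 for LAMA3, −0.08 for LAMB3 and 0.0004 for NID1 (log2). With 3 animals in each group, changes of any size within these intervals remain compatible with the data.

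Between LPS 16h and LPS 5d, 4 of 8 members were called, COL4A1 higher at 16 hours and COL4A3, COL4A4 and LAMA3 lower, beside 14.6% of all genes (6.61% lower and 8.02% higher). By the adjusted p alone 6 passed, beside 35.0% of all genes. LAMA3 differed by −1.66 ± 0.14 (log2, limma adjusted p = 4.81e-07). COL4A2 and LAMB3 passed without the fold, at 0.39 ± 0.13 and −0.35 ± 0.13 (limma adjusted p = 0.0282 and 0.0397). Both lost the adjusted p in the fit of these groups alone and without LPS 16h animal 026 or 035 or LPS 5d animal 240. COL4A2 also lost it when scaled by total count (0.20, limma adjusted p = 0.216) and without LPS 5d animal 242, and LAMB3 without LPS 16h animal 038 or LPS 5d animal 239. NID1 and NID2 differed by −0.08 ± 0.18 and −0.07 ± 0.13 and did not pass (limma adjusted p = 0.771 and 0.719).

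Against the term controls, no member was called or passed in either 5-day group by limma or called by limma-voom, and 3 of 8 at LPS 5d and 2 of 8 with Beta-Ac had an unadjusted limma p below 0.05. Over all genes, 0.0625% were called and 0.0990% passed the adjusted p at LPS 5d, and 0.568% and 0.734% with Beta-Ac. COL4A3 had the largest difference at LPS 5d, −0.62 with a 95% confidence interval from −1.14 to −0.11 (limma adjusted p = 0.356). LAMB3 lay above term by 0.57 ± 0.15 (limma adjusted p = 0.181). The other differences at LPS 5d were 0.12 for COL4A1, 0.10 for COL4A2, −0.45 for COL4A4, 0.09 for LAMA3, 0.02 for NID1 and 0.39 for NID2 (log2). With Beta-Ac they were 0.33 for COL4A1, 0.15 for COL4A2, −0.58 for COL4A3, −0.34 for COL4A4, 0.02 for LAMA3, 0.49 for LAMB3, 0.02 for NID1 and 0.17 for NID2.

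The epithelial and the vascular chains were then set against each other within each animal, as the mean log2 difference of each set from its preterm mean. In the preterm controls epithelial minus vascular ran from −0.31 to 0.47. It was −0.86 to −0.76 in the LPS 16h animals, 0.81 to 1.10 at LPS 5d, 0.70 to 1.13 with Beta-Ac and 1.12 to 1.25 at term. The LPS 16h animals thus lay below the preterm controls and the other 3 groups above them, without overlap. LAMB3, which rose at 16 hours, pulls the epithelial mean up there. Without it the difference was −1.42 to −1.23 in the LPS 16h animals, −0.42 to 0.52 in the preterm controls, 0.71 to 0.94 at LPS 5d, 0.57 to 1.08 with Beta-Ac and 1.17 to 1.42 at term. These values describe the members and carry no test, and the vascular set is not particular to vessels.

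**Figure D3:**
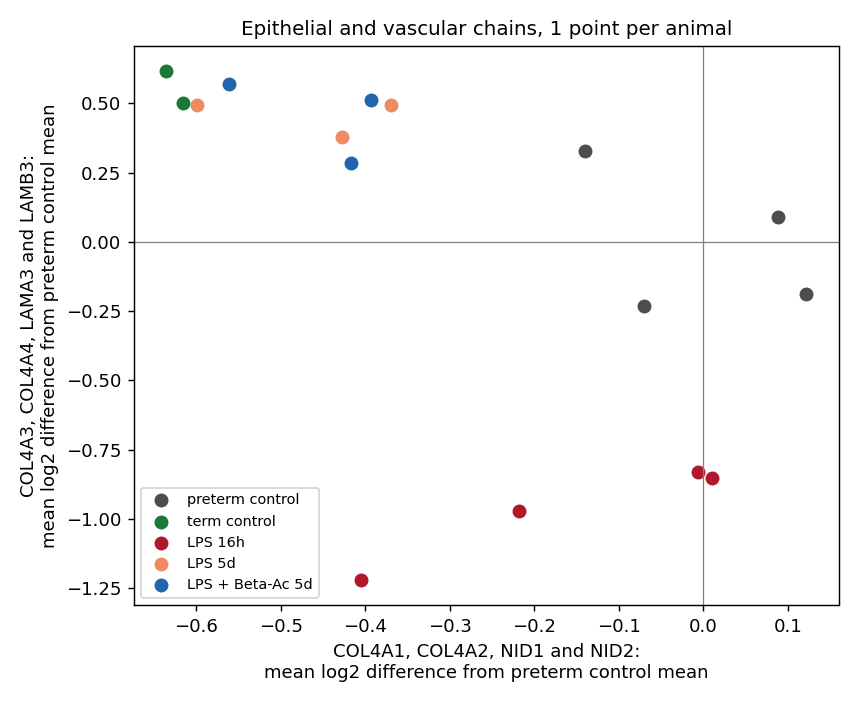
Each point is 1 animal, placed by the mean log2 difference from the preterm control mean of the vascular or interstitial chains (horizontal) and the epithelial chains (vertical). The LPS 16h animals sit low, between −1.22 and −0.83 on the vertical axis, and the term and 5-day animals sit at the upper left.

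Markers of several cell types also differed at 16 hours, some lower and some higher. Over all genes, 6.07% were called lower and 8.30% higher, and 38.3% passed the adjusted p in either direction. Of 8 alveolar type 1 genes, 6 were called lower at 16 hours, and their summed level was 1491 to 1762 CPM, against 4060 to 4642 CPM in the preterm controls. CAV1 was the largest part of this sum, averaging 640 CPM at 16 hours against 2061 CPM in the preterm controls. The fitted change was negative in 7 of the 8, while PDPN averaged 128 CPM against 119 CPM. AGER, a defining marker, read 416 to 579 CPM against 511 to 1117 CPM and did not pass (limma adjusted p = 0.0871). Of 8 alveolar type 2 genes, 5 were called higher, with sums of 9035 to 17110 CPM against 6166 to 9834 CPM, while SFTPC did not pass (limma adjusted p = 0.254). Of 7 general epithelial genes tested, 3 passed the adjusted p, all higher, and 1 of them was called, ELF3 at 1.29 (log2, limma adjusted p = 0.00141). Their median change was −0.17 and their sums were 784 to 1249 CPM against 638 to 837 CPM, while EPCAM read −0.32 and did not pass (limma adjusted p = 0.144). Myeloid genes summed to 2142 to 2876 CPM against 121 to 253 CPM, with 6 of 8 called higher and MARCO at 0 in all preterm controls. The part of these cells, and of the greater depth of the LPS 16h libraries, in the changes of COL4A3, COL4A4 and LAMA3 was not tested.

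Endothelial genes summed to 2502 to 3024 CPM in the preterm controls, 1568 to 2174 CPM at term, 2036 to 2388 CPM at 16 hours, 1730 to 2579 CPM at LPS 5d and 2072 to 2504 CPM with Beta-Ac. At term 1 of 9 was called lower, CDH5, at −1.22 (log2, limma adjusted p = 0.0308), and PECAM1 did not pass (limma adjusted p = 0.0588). Of the same 9, 2 were called lower at 16 hours. By the adjusted p alone, 3 were lower at term, 4 at 16 hours, 1 at LPS 5d and 2 with Beta-Ac, and none higher. Over all genes, 3.99%, 38.3%, 14.7% and 17.3% passed it in these comparisons, in either direction. The shares called were 2.07%, 14.4%, 4.83% and 6.50%. Pericyte and smooth muscle genes summed to 3039 to 3659 CPM in the preterm controls, 1800 to 2335 CPM at term, 2455 to 2728 CPM at 16 hours, 2044 to 2125 CPM at LPS 5d and 1908 to 2320 CPM with Beta-Ac. Of these 8 genes, 3 passed the adjusted p as lower at term, 4 at LPS 5d and 5 with Beta-Ac, and none as higher there. At 16 hours 5 passed it as lower and 2 as higher, with 1 called in each direction. Fibroblast genes summed to 14050 to 22800 CPM in the preterm controls, 8710 to 8747 CPM at term, 9661 to 13500 CPM at 16 hours, 8546 to 14760 CPM at LPS 5d and 8323 to 11360 CPM with Beta-Ac. COL1A1, COL1A2, COL3A1 and FN1 were the largest parts of these sums. Of the 8 fibroblast genes, 3 passed the adjusted p as lower at term, 6 at 16 hours, 1 at LPS 5d and 4 with Beta-Ac. None passed as higher, and those called numbered 3, 2, 0 and 2 in the same order. TCF21 averaged 164 CPM in preterm controls, 154 at term, 42.9 at 16 hours, 170 at LPS 5d and 150 with Beta-Ac. The part of these cell types in the lower COL4A1, COL4A2, NID1 and NID2 was not tested.

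Epithelial and myeloid markers also differed at 5 days. Over all genes, 4.83% were called at LPS 5d and 6.50% with Beta-Ac, and 14.7% and 17.3% passed the adjusted p. General epithelial genes summed to 976 to 1165 CPM at LPS 5d and 853 to 1129 CPM with Beta-Ac. They summed to 638 to 837 CPM in the preterm controls, and 2 of 7 passed the adjusted p as higher in each 5-day group. The fitted change was positive in 6 of 7 in each. EPCAM averaged 137 and 159 CPM, against 159 CPM in the preterm controls, and ELF3 269 and 220 CPM, against 105 CPM. Alveolar type 2 genes summed to 13140 to 20670 CPM and 15230 to 20660 CPM, with 3 and 5 of 8 called higher and 1 called lower in each. Alveolar type 1 genes summed to 3482 to 4475 CPM and 2605 to 3996 CPM, with none called. Their preterm sums were 4060 to 4642 CPM. CAV1, the largest part of these sums in the preterm controls, averaged 1228 and 1076 CPM against 2061 CPM there. AGER averaged 1188 and 1045 CPM against 873 CPM. The fitted change was positive in 3 of the 8 type 1 genes and negative in 5 in both groups. By the adjusted p alone, 1 of 8 was higher and 1 lower at LPS 5d, while with Beta-Ac 4 of 8 were lower and none higher. Myeloid genes summed to 222 to 245 CPM and 402 to 645 CPM, with 4 and 7 of 8 called higher. Their part in the higher LAMA3, LAMB3, COL4A5 and COL4A6 at 5 days was not tested.

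Of 49 other basement membrane genes, 47 had a row and all were tested. At 16 hours 5 were called, 3 lower and 2 higher, a smaller share than the 14.4% called over all genes. By the adjusted p alone, 19 of the 47 were lower and 4 higher, beside 38.3% of all genes in either direction. The median change over the 47 was −0.39 (log2), beside −0.09 over all genes. The genes lower were LAMC3, a laminin gamma chain (−1.66 ± 0.25), the laminin receptor BCAM (−1.18 ± 0.21) and NTN4, a netrin that binds laminin (−1.03 ± 0.17). The genes higher were the prolyl hydroxylases of collagen P3H2 (1.23 ± 0.22) and P4HA1 (1.01 ± 0.14). LAMC3 read 19.6, 25.5, 10.02 and 19.9 CPM at 16 hours against 56.0, 53.8, 64.8 and 50.9 CPM in the preterm controls, with no overlap. NTN4 and P4HA1 lay at the 2-fold limit and fell just under it in several alternatives, among them 0.80 for P4HA1 scaled by total count.

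Among the common laminin chains at 16 hours, LAMB1 and LAMC1 did not pass (limma adjusted p = 0.404 and 0.914). LAMB2 and LAMA4, an alpha chain of vessel laminin, passed without the fold at −0.44 ± 0.15 and −0.46 ± 0.14 (limma adjusted p = 0.0262 and 0.0145). LAMA4 lost the adjusted p without preterm animal 113, and LAMB2 without LPS 16h animal 026 or 038 or preterm animal 092 or 101. HSPG2, which encodes perlecan, the heparan sulfate proteoglycan of the membrane, read 651, 484, 783 and 567 CPM against 945, 950, 966 and 972 CPM, with no overlap (−0.65 ± 0.15, limma adjusted p = 0.00299).

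Of the last collagen IV pair, COL4A6 was called higher at 5 days and COL4A5 passed the adjusted p alone. COL4A6 read 127, 125, 194 and 169 CPM in the preterm controls, 289, 343 and 305 CPM at LPS 5d and 293, 297 and 331 CPM with Beta-Ac. It was called in both, at 1.04 ± 0.19 and 1.02 ± 0.19 (log2, limma adjusted p = 0.00233 and 0.00193). COL4A5 passed without the fold, at 0.57 ± 0.17 and 0.50 ± 0.17 (limma adjusted p = 0.0311 and 0.0479), and lost the adjusted p without any single 5-day animal or preterm animal 092 or 101. COL4A5 also lost it in the fit of these groups alone (limma adjusted p = 0.0604 and 0.0912) and, with Beta-Ac, when scaled by total count (0.0610), with no filter (0.0546) and with limma-voom (0.0515). COL4A6 kept its adjusted p throughout and fell just under 2-fold without preterm animal 092 (0.96 and 0.94) or 101 (0.95 and 0.93), LPS 5d animal 240 (0.97) or Beta-Ac animal 255 (0.96). At 16 hours neither passed, with COL4A6 at 160, 87.7, 150 and 113 CPM. At term COL4A6 read 164 CPM in both animals, inside the preterm range.

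**Figure D4:**
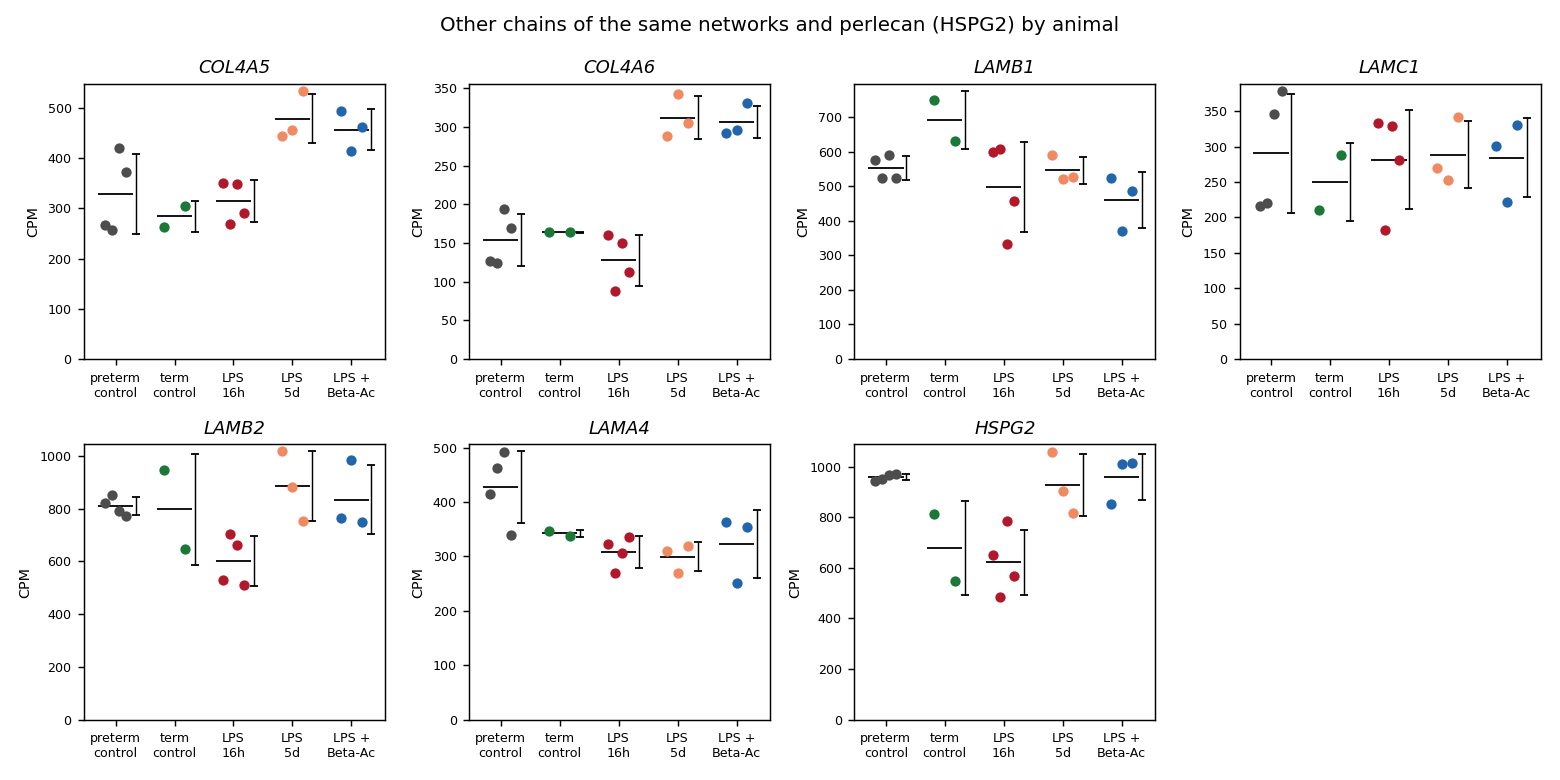
CPM of 7 further basement membrane genes in each animal (points) by group, with the group mean (line) and its SD (bar), and every axis starts at 0. COL4A6 was highest in the 6 animals of the 5-day groups, and HSPG2 was lower in the LPS 16h animals than in the preterm controls.

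Against preterm, 2 of the 47 were called at LPS 5d, both higher, beside 4.83% of all genes. With Beta-Ac 2 were called higher and 1 lower, beside 6.50% of all genes. At term 2 were called lower, beside 2.07% of all genes. Beside COL4A6, 1 other listed gene was called higher at LPS 5d, FREM2, of the Fraser complex that anchors epithelium. It read 13.0, 11.1 and 16.1 CPM, against 3.62, 3.37, 5.75 and 5.31 CPM in the preterm controls (1.58 ± 0.23, limma adjusted p = 0.000565). With Beta-Ac it was called again at 1.55 ± 0.23 (limma adjusted p = 0.000366), and COL17A1, a hemidesmosome collagen, was called lower on 1, 8 and 9 counts (limma adjusted p = 0.0325). The COL17A1 call was lost with limma-voom (adjusted p = 0.133) and without several single animals. At term COL15A1, a collagen next to vessel membranes, and LOXL2, which crosslinks collagen IV, were called lower at −1.21 ± 0.25 and −1.22 ± 0.20. COL15A1 lost its call without term animal 200 or 201, LOXL2 its 2-fold change without 201 (−0.92), and both their adjusted p in the fit of these groups alone.

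Between LPS 16h and LPS 5d, 10 of the 47 were called, 1 higher and 9 lower at 16 hours, beside 14.6% called over all genes, 8.02% higher and 6.61% lower. The 5 largest differences were those of FREM2 (−2.34 ± 0.23), BCAM (−1.63 ± 0.23), FRAS1, another Fraser complex gene (−1.57 ± 0.37), ITGB4, a hemidesmosome integrin (−1.54 ± 0.44), and COL4A6 (−1.33 ± 0.19). P4HA1 was the gene called higher. The ITGB4 call was lost without LPS 5d animal 239 (−1.05, limma adjusted p = 0.0858). In LPS + Beta-Ac 5d against LPS 5d, and in LPS 5d against term, none of the 47 was called. Over all genes, 0.104% and 0.0625% were called there. With Beta-Ac against term, FREM2 alone of the 47 was called, at 1.34 ± 0.27, beside 0.568% of all genes. That call was lost without either term animal or Beta-Ac animal 248 or 249, and in the fit of these groups alone.

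As a description over the 16 animals, which share group differences and depth, COL4A3 followed COL4A4 (Pearson r = 0.93) and LAMA3 (r = 0.88) and not LAMB3 (r = −0.09). COL4A1 followed COL4A2 (r = 0.77). Outside the members, the genes most like COL4A3 were TRAK1 (r = 0.95), the type 1 cell gene CLIC5 (r = 0.94) and PRDM6 (r = 0.94). For COL4A1 they were RDH11 (r = 0.94), ZMYM4 (r = 0.93) and ACTN1 (r = 0.93), and for LAMB3 they were RAB25 (r = 0.94), NPC2 (r = 0.91) and DDR1 (r = 0.90).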

How the data were processed

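RNA from fetal lung was sequenced by the authors. Reads were assigned to the rhesus build Mmul_10 with kallisto and compared with DESeq2, per the submitters' processing notes, which give no versions. The authors deposited whole-number counts, 1 row per Ensembl gene (recorded as another unit because of the layout of the table), and 0 further columns were left unused. Gene symbols came from a table of IDs, which gave 17256 of 22515 genes a symbol. Counts were scaled by TMM (trimming 30% of log ratios and 5% of mean values) and put on the log2 CPM scale (prior count 2). Genes that reached 10 counts of the median library (0.371 CPM) in 2 or more animals, and had 15 counts over all animals, were tested with limma 3.58.1 in R 4.3.3, with the trend and robust options, 1 mean per group and 11 residual degrees of freedom, on both sides. The test was tested on simulated data. Within groups, replicates differed beyond sampling noise (chi-square per degree of freedom 31.1 to 166). Group labels came from the labels of the samples, and no animal number is shared between groups. Nothing says that animals shared a batch. All members with a row were named in every comparison, with other chains of the same networks (1 of them is not reported here), the called genes of the other list (at most 5 a comparison, by size), and the 3 most similar genes. The members and the lists were chosen with earlier results of these data known. Other scalings, prior counts, filters, fits and left-out animals were tried. For the other basement membrane genes, these alternatives were added after seeing the data.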

Additional observations from a re-analysis of the deposited data

Results flagged for a closer look

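The effect of LPS against preterm control differed between 16 hours and 5 days in 4 members, by the limma test of LPS 16h against LPS 5d: COL4A1 by 1.00, COL4A3 by −1.68, COL4A4 by −2.01 and LAMA3 by −1.66 on the log2 scale (16h minus 5d). In 32 sets of values, those of the members and of other chains in the preterm controls and in the LPS 16h animals, no animal lay far enough from the others to be singled out. The groups of 2 or 3 animals were not checked.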

How the results depend on the processing

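Of 920 member values under the alternatives, 867 had the direction and call of the reported value. Without the fold minimum, members called came to 3 at term, 5 at LPS 16h, 4 at LPS 5d and 4 with Beta-Ac against preterm. Leaving out 1 animal gave 0 to 1 members called at term (COL4A4, without preterm animal 209) and 3 to 4 in LPS 16h against LPS 5d, where COL4A1 fell just under 2-fold without LPS 16h animal 026 (0.95) or 035 (0.86) or LPS 5d animal 239 (1.00) or 240 (0.97). Scaling by total count moved the median of all genes at LPS 16h against preterm from −0.09 to −0.29 (log2) and the share of calls that were higher from 57.8% to 39.4%. COL4A2 and NID2 then passed the adjusted p (0.0145 and 0.00822, limma). At LPS 16h against LPS 5d that share moved from 54.8% to 38.0%, at LPS 5d against term from 50% to 37.5%, and with Beta-Ac against term from 66.1% to 52.7%. With limma-voom it was 28.6% at LPS 5d against term.

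Signs turned only in values that did not pass. With total count, NID1 read −0.0017 with Beta-Ac against LPS 5d (−0.0008 by median of ratios), −0.063 at LPS 5d against term and −0.065 with Beta-Ac against term, and LAMA3 −0.064 there. Leaving out 1 animal gave, for Beta-Ac against LPS 5d, −0.0012 to 0.14 for COL4A2, −0.12 to 0.19 for COL4A3, −0.0020 to 0.27 for COL4A4, −0.15 to 0.048 for LAMA3, −0.15 to 0.0017 for LAMB3 and −0.11 to 0.079 for NID1. For LPS 16h against LPS 5d it gave −0.24 to 0.025 for NID1 and −0.20 to 0.023 for NID2. For COL4A3 against preterm it gave −0.062 to 0.15 at LPS 5d and −0.072 to 0.21 with Beta-Ac. Against term it gave, at LPS 5d, −0.064 to 0.27 for COL4A2, −0.078 to 0.26 for LAMA3 and −0.022 to 0.071 for NID1, and with Beta-Ac −0.016 to 0.32, −0.15 to 0.19 and −0.087 to 0.099.

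Over all genes, fitting only the groups compared gave 116 calls at term against preterm in place of 397, 0 in place of 20 for Beta-Ac against LPS 5d, 0 in place of 12 at LPS 5d against term and 13 in place of 109 with Beta-Ac against term. Limma-voom gave 3 for Beta-Ac against LPS 5d and 7 at LPS 5d against term. The cause was not tested. No paired analysis was possible because the groups share no animal numbers.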
